A study of Mus musculus with 4 samples.

Results

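The 9 genes described here encode proteins that move sodium, chloride, potassium and water across epithelial membranes of the lung: the epithelial sodium channel (ENaC) subunits Scnn1a, Scnn1b and Scnn1g, the sodium pump subunit Atp1b1, the chloride transporters Slc12a2 and Cftr, and the aquaporins Aqp1, Aqp3 and Aqp4. They were taken by symbol from the table of raw gene counts, where each symbol matched a single row, so that they are 9 of 39017 genes. All 9 passed the filter used for tests between tumours, a mean of 1 or more counts per 1000000 (CPM), which 14225 genes passed.

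The lung epithelium keeps its airspaces thinly wetted by balancing absorption and secretion of salt, with water following. In absorption, sodium enters from the airspace through ENaC and is pumped out at the base of the cell by the Na,K-ATPase, a pump made of an alpha and a beta subunit. In secretion, the cotransporter encoded by Slc12a2 loads the cell with chloride, which leaves through channels such as Cftr, while aquaporins are membrane pores for water or, in some members, glycerol.

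RNA was sequenced from 4 lung tumours of male KP mice of strain C57BL/6, all in a single Control group, so the data hold no treated or mutant arm and the only comparisons are between genes and between tumours. KP mice carry floxed p53 alleles (p53Fl/Fl) and an oncogene allele that Cre switches on. Tumours were started with 1500 units of lentivirus given through the trachea, in which the broadly active PGK promoter drives Cre, so that initiation was not restricted to a single cell type, and they were collected after 22 weeks and 5 days. The labels add that the controls were heterozygous (fl/wt) for a floxed gene that they do not name, whereas by the study's methods a control animal could be wild type or carry a single floxed copy of Slc2a1. Each tumour was cut out of the lung, dissociated and sequenced as a bulk sample, and nothing in the labels says whether the tumours came from separate animals. With 1 library per tumour, differences between tumours and between library preparations cannot be told apart, and in such bulk samples fewer cells of a type and less RNA per cell cannot be told apart either.

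The libraries held 8151613 to 8799007 gene counts, which puts the CPM of 3 counts, the most that a count of 0 allows, at 0.330 to 0.370. Marker genes were used to see which cell types were detected. All 10 alveolar type 2 (AT2) and all 10 alveolar type 1 (AT1) markers averaged 1 CPM or more. So did all 8 endothelial, all 6 leukocyte, all 7 club cell and 7 of 8 fibroblast markers. This level therefore does not by itself show the tumours to be epithelial. Tumour 1 stood apart. Its summed AT2 marker level was 33911 CPM against 55042 to 62401 in the other tumours, 8 of 10 AT2 markers were lowest there, and 5 of 6 general epithelial markers (Epcam, Krt8, Krt18, Krt19 and Krt7) were highest there. Of the 9 transport genes, 4 were highest and 3 lowest in tumour 1, beside 31.4% and 30.3% of all genes tested, and for these 7 genes the ratio of highest to lowest tumour is given below with and without it.

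Levels of different genes were compared as CPM per kilobase of merged exons (RPKM). The sodium pump subunit and the chloride loader were the most abundant members and Cftr and Aqp4 the least. Mean RPKM, given throughout with the SD over the 4 tumours, was 308 ± 73.4 for Atp1b1, which placed it 84th of 14100 genes by RPKM. It was 98.7 ± 23.1 for Slc12a2, 56.2 ± 7.26 for Aqp1 and 21.7 ± 7.24 for Scnn1a. Then followed Scnn1b at 9.75 ± 2.22, Scnn1g at 8.58 ± 1.64 and Aqp3 at 4.27 ± 0.778. Cftr, at 0.737 ± 0.4996, was 12850th and Aqp4, at 0.264 ± 0.120, was 13833rd. Of the 8 pairs of neighbours in this order, 6 kept their direction in 4 of 4 tumours, including Scnn1a over Scnn1b, whose RPKM in tumour 1 were almost equal at 12.4 and 12.2. The other 2 pairs did not differ beyond their spread: Scnn1b exceeded Scnn1g by 0.18 ± 0.34 on the log2 RPKM scale, in 3 of 4 tumours, and Cftr exceeded Aqp4 by 1.24 ± 1.41, also in 3 of 4. With 4 tumours the exact sign-flip permutation test, two-sided throughout, cannot give a p below 0.125, so none of these within-tumour differences could pass 0.05. The 6 pairs that kept their direction each had p = 0.125 (permutation test, adjusted p = 0.167 over the 8 pairs). The order was set by these same values, so every mean difference was positive in advance and these p-values give the order no support.

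**Figure D1:**
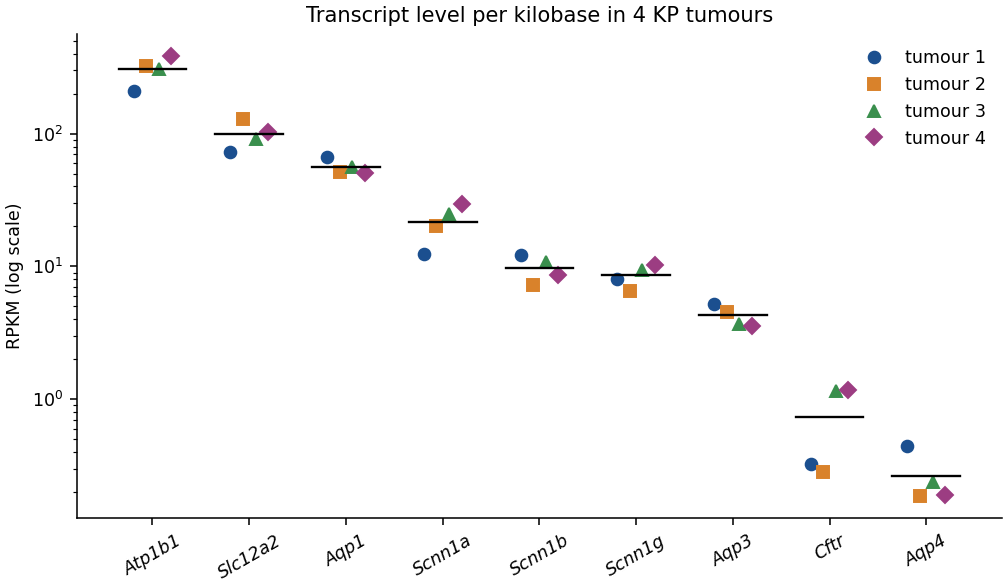
RPKM (log scale) of the 9 transport genes in each of the 4 tumours, 1 point per tumour, a black line at the mean, and the genes ordered by level. Atp1b1 is highest at 211 to 388 RPKM, and the points of Cftr form a low pair near 0.3 and a high pair near 1.2.

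For sodium entry, the data show all 3 ENaC subunits, with the alpha subunit above the beta and gamma subunits per kilobase in every tumour, though only just above beta in tumour 1. Scnn1a encodes the alpha subunit, which the channel needs to reach the membrane (ENSMUSG00000030340, chromosome 6 from 125320659 to 125344943 on the plus strand of GRCm38, 12 exons). Its CPM in tumours 1 to 4 was 51.3, 82.9, 103 and 121, a mean of 89.6 ± 29.9. Tumour 1 was the lowest and tumour 4 the highest, 2.36 times apart. This spread exceeded counting noise (chi-square test against Poisson noise with Benjamini-Hochberg adjustment over all genes tested, used for every adjusted p that follows unless another test is named; adjusted p = 4.73e-56), as it did for 76.7% of all genes tested. Without tumour 1 the ratio was 1.46 and the adjusted p 4.46e-13. The AT2 markers were also lowest in tumour 1, and their part in the Scnn1a difference was not tested.

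Scnn1b and Scnn1g encode the beta and gamma subunits, which raise the current through the alpha pore, and they lie close together on the plus strand of chromosome 7. Scnn1g (ENSMUSG00000000216, 13 exons) spans 121734479 to 121768475 and Scnn1b (ENSMUSG00000030873, 13 exons) spans 121865038 to 121918514, with 96562 bases and a single annotated gene, Gm44740, between them. The CPM of Scnn1b was 32.1, 19.05, 28.6 and 22.8, with tumour 1 the highest and tumour 2 the lowest, 1.69 times apart and 1.51 times without tumour 1 (adjusted p = 3.32e-07). The CPM of Scnn1g was 24.2, 19.5, 28.1 and 30.8, lowest in the same tumour but highest in tumour 4 (adjusted p = 4.73e-05). Both neighbours had their lowest value in tumour 2, where 19.4% of all genes tested were lowest, but counting error leaves this lowest place unsettled. For Scnn1b, the exact Poisson interval of tumour 2 overlapped that of tumour 4 (16.2 to 22.2 and 19.7 to 26.3 CPM). For Scnn1g, it overlapped that of tumour 1 (16.7 to 22.7 and 21.1 to 27.6 CPM). In tumour 2, 8 of 10 AT1 markers were also lowest (a summed 3073 CPM against 3948 to 4596). The part of AT1 cells in the Scnn1b and Scnn1g levels was not tested. As the members that lie side by side, their upstream bases are shown for comparison, taken from RefSeq (GRCm38.p6, plus strand, 5′ to 3′), with matches to the GC box letters GGGCGG on either strand in capitals. The Scnn1g window is chr7:121734229-121734478 and the Scnn1b window is chr7:121864788-121865037, each the 250 bases before the start.
Scnn1g: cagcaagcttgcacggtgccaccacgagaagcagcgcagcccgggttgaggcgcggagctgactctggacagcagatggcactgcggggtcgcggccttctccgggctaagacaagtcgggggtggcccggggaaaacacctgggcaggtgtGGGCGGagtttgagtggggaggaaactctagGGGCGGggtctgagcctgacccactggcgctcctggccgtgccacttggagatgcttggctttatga
Scnn1b: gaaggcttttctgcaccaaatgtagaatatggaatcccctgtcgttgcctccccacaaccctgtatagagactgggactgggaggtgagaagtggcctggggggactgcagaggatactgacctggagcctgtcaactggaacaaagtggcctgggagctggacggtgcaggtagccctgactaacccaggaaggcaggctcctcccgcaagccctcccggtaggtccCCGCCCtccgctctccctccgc

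RefSeq promoter windows of 300 bases, from 250 before to 50 after the start, were matched for 6 of the 9 members, not for Scnn1a, Aqp4 or Slc12a2. The Scnn1g window was 64.7% G and C with 18 CpG pairs, and that of Scnn1b 61.7% with 10, while the median over all 32851 mouse windows was 52.7% and 7. All 6 matched members held GGGCGG on at least one strand, against 35.7% of all windows. The CCAAT box letters CCAAT were found on either strand in Cftr and Atp1b1 (37.4% of all windows), the TATA box letters TATAAA in Aqp3 alone among the matched members (13.6%), and the glucocorticoid half-site letters AGAACA in none of the 6 (19%). Each motif was searched on its own, so that matches may overlap, and these are matches of letters only.

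Within a tumour, Scnn1a exceeded Scnn1b by 0.02, 1.47, 1.197 and 1.75 on the log2 RPKM scale in tumours 1 to 4, a mean of 1.11 ± 0.76, and of 1.47 without tumour 1. It exceeded Scnn1g by 1.29 ± 0.46, again in 4 of 4 tumours (both exact sign-flip permutation p = 0.125, adjusted p = 0.25 over 4 subunit pairs). The alpha share of the summed ENaC RPKM was lowest in tumour 1, at 37.9%, and lay between 55.2% and 60.7% elsewhere, and the beta share ran the other way, from 37.3% in tumour 1 to 17.97% in tumour 4. The gamma share stayed between 19.3% and 24.7%. The summed ENaC RPKM itself was 32.7, 33.8, 45.2 and 48.3, so tumours 1 and 2 had similar totals built from different subunit shares.

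**Figure D2:**
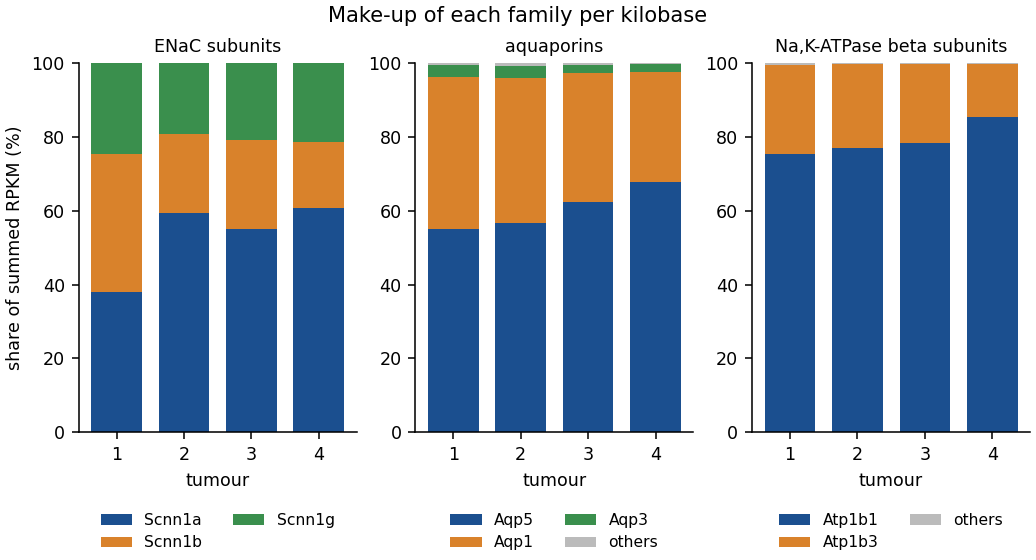
Share of the summed RPKM (percent) held by each gene of 3 families (ENaC subunits, aquaporins, Na,K-ATPase beta subunits) in tumours 1 to 4, as stacked bars from 0 to 100. Scnn1a takes 37.9% of ENaC RPKM in tumour 1 and 55.2% to 60.7% in the other tumours, and Atp1b1 takes 75.4% to 85.4% of the beta subunits.

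Around the channel, the genes that cut, ubiquitylate or hormonally control ENaC were detected throughout. Among 6 proteases and inhibitors, all 6 varied between tumours beyond counting noise, beside 76.7% of all genes tested. Prss8, a membrane-anchored protease that activates ENaC, was the most abundant at 88.2 ± 8.07 RPKM, and its inhibitors Spint2 and Spint1 were at 74.5 ± 20.99 and 73.6 ± 5.24. The proteases Furin and St14 were highest at 132 CPM in tumour 1 and 136 CPM in tumour 2, and both were lowest in tumour 3, at 56.5 and 61.1 CPM. Tmprss4, another channel-activating protease, was at 26.8, 94.9, 55.9 and 67.4 CPM, lowest in tumour 1 like Scnn1a (adjusted p = 2.02e-73). Of 10 regulators, 9 varied beyond counting noise, beside 76.7% of all genes tested. In tumour 1, 7 of the 10 were lowest, beside 30.3% of all genes tested. Scnn1a was also lowest there, but Scnn1b was highest. The kinases Stk39 and Wnk1, which act on cation chloride cotransporters and channels, were at 47.5 ± 10.5 and 24.9 ± 3.09 RPKM, and Nr3c1, the glucocorticoid receptor, was at 18.8 ± 3.99 with its target Tsc22d3 at 17.5 ± 1.85. Hsd11b2, which inactivates glucocorticoids, was at 17.2, 20.8, 12.3 and 8.09 CPM, lowest in tumour 4. Sgk1, a steroid-induced kinase that raises ENaC at the membrane, reached 60.8 CPM in tumour 3, with 23.1 to 31.8 elsewhere. Tumour 3 was also where 5 of 6 leukocyte and 5 of 7 club cell markers were highest, beside 30.1% of all genes tested. The part of such cells in this and the other tumour 3 peaks given below was not tested.

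For sodium exit, Atp1b1 was the most abundant member and the source of most beta subunit RNA. Atp1b1 encodes the beta 1 subunit, which carries the alpha subunit to the membrane (ENSMUSG00000026576, chromosome 1 from 164437109 to 164458355 on the minus strand, 6 exons). Its CPM was 649, 1003, 951 and 1195, a mean of 949 ± 226. Tumour 1 was again lowest and tumour 4 highest, 1.84 times apart (adjusted p = 9.78e-308), and without tumour 1 the ratio was 1.25. Atp1b1 overlaps Nme7 on the opposite strand over 575 exonic bases, where Nme7 had 93 to 140 counts per tumour beside 5898 to 10044 for Atp1b1. As the most abundant member, its upstream bases are shown, chr1:164458356-164458605 on GRCm38.p6, read on the minus strand, with GGGCGG on either strand in capitals.
Atp1b1: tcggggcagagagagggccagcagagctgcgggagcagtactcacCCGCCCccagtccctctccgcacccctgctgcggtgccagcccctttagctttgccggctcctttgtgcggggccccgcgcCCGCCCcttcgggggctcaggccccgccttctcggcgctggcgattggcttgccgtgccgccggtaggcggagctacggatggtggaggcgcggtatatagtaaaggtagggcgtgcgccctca

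Atp1b1 made up 75.4%, 77.1%, 78.5% and 85.4% of the RPKM summed over the beta genes in tumours 1 to 4, a mean of 79.1% ± 4.42, and was lowest in tumour 1 and highest in tumour 4 by share as by level. Atp1b3, another beta subunit, held 20.6% ± 4.32. Per kilobase, Atp1b1 exceeded Atp1b3 by 1.96 ± 0.41 on the log2 scale in 4 of 4 tumours (exact sign-flip permutation p = 0.125, a pair chosen after the values were seen). Of 10 tested other genes of the pump, 9 varied beyond counting noise (76.7% of all genes tested). They included Fxyd5, a small pump-associated protein, at 77.1 CPM in tumour 3 and 36.7 to 45.0 elsewhere, and Fxyd4 at 2.21 to 6.82 CPM. Fxyd1, of the same family, stayed at or under 1.97 CPM.

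**Figure D3:**
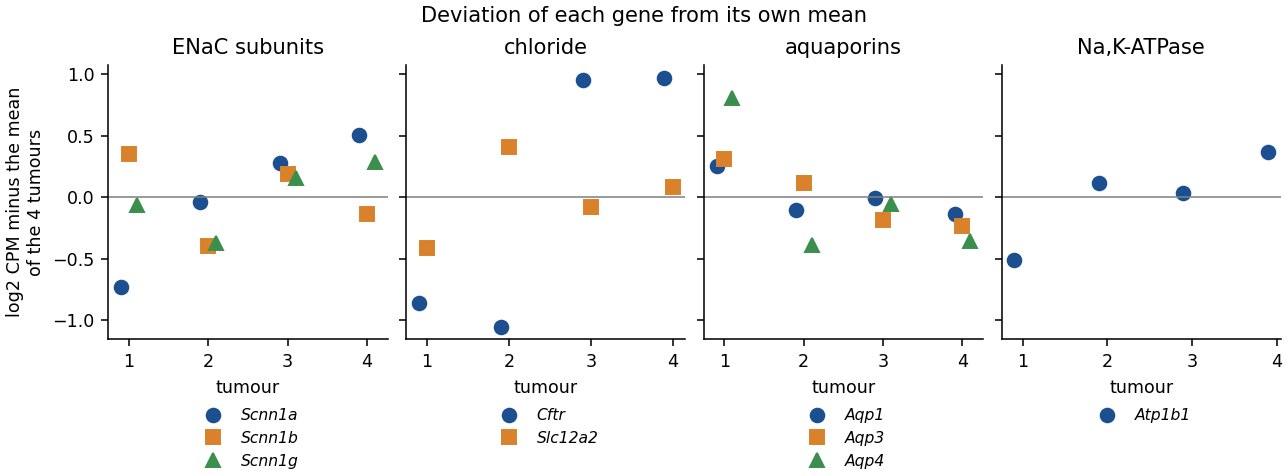
Difference of each tumour's log2 CPM from the gene's mean over the 4 tumours, for the 9 transport genes in 4 panels by role, with the tumour on the x axis and 1 marker shape per gene. Tumour 1 lies below the mean for Scnn1a, Atp1b1 and Slc12a2 and above it for Scnn1b, Aqp1, Aqp3 and Aqp4, and Cftr shows tumours 1 and 2 low and tumours 3 and 4 high.

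For chloride, the entry step was abundant and the Cftr exit channel scarce and split between tumours. Cftr encodes the cyclic AMP-activated chloride and bicarbonate channel mutated in cystic fibrosis (ENSMUSG00000041301, chromosome 6 from 18170687 to 18322768 on the plus strand, 28 exons). Its counts were 23, 19, 73 and 77, which gave 2.53, 2.21, 9.01 and 9.16 CPM. The exact Poisson 95% intervals of tumours 1 and 2 (1.60 to 3.797 and 1.33 to 3.45 CPM) did not overlap those of tumours 3 and 4 (7.06 to 11.3 and 7.23 to 11.4). Intervals of this kind cover counting error only, and no molecular identifiers are described for these reads. The grouping of tumours was read from the values, and the share of all genes with intervals separated in this way was not counted. Spread beyond counting noise was found for 76.7% of all genes tested. The highest tumour was 4.15 times the lowest (adjusted p = 3.33e-14), and the SD of log2 CPM, 1.11, ranked 676th of 14225 genes. Of the markers of ionocytes, a rare airway cell rich in Cftr, Foxi1 had a count of 0 in all 4 tumours and Ascl3 was at or under 0.220 CPM, each at or under the limit of 3 counts. The summed CPM of club cell markers was 304, 908, 1672 and 922, and the part of these cells was not tested. As the member whose level varied most, its upstream bases are shown, chr6:18170437-18170686 on the plus strand of GRCm38.p6, with GGGCGG on either strand in capitals, from a window with 71.3% G and C and 31 CpG pairs over 300 bases.
Cftr: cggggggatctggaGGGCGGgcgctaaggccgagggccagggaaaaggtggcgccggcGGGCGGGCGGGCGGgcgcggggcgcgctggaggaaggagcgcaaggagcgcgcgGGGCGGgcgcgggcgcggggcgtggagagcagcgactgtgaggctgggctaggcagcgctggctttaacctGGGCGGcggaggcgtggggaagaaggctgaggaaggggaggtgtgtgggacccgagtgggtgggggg

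The chloride channels Slc26a9 and Ano1 were more abundant than Cftr in every tumour. Slc26a9, an anion channel of airway and stomach epithelium, was at 351 to 601 CPM and exceeded Cftr per kilobase by 7.24 ± 0.96 on the log2 scale. Ano1, the calcium-activated chloride channel, was at 409, 188, 129 and 294 CPM and exceeded it by 5.94 ± 1.53. Both held in 4 of 4 tumours (exact sign-flip permutation p = 0.125, pairs chosen after the values were seen). Slc26a4, which encodes the anion exchanger pendrin, reached 186 CPM in tumour 3, with 41.2 to 61.2 elsewhere. Slc9a3r1, a scaffold that binds Cftr at the apical membrane, was at 29.3 ± 2.92 RPKM. Slc26a6, another anion exchanger, was at 0.517 ± 0.183 RPKM, under the mean of Cftr. Of 15 chloride and bicarbonate genes in this list, 14 varied beyond counting noise, beside 76.7% of all genes tested. Of the 15, 5 were lowest in tumour 1, 1 in tumour 2, 9 in tumour 3 and none in tumour 4. The shares of all genes tested that were lowest in tumours 1 to 4 were 30.3%, 19.4%, 32.6% and 17.7%.

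On the entry side, the level was 98.7 RPKM beside the 0.737 of Cftr. Slc12a2 encodes the sodium, potassium and chloride cotransporter NKCC1 (ENSMUSG00000024597, chromosome 18 from 57878678 to 57946821 on the plus strand, 27 exons). Its CPM was 794, 1398, 1000 and 1118, lowest in tumour 1 and highest in tumour 2, 1.76 times apart and 1.396 times without tumour 1. The chi-square value of 1562 on 3 degrees of freedom was the largest among the members, and its adjusted p was below what could be written. Per kilobase, Slc12a2 exceeded Scnn1a by 2.23 ± 0.45 on the log2 scale in 4 of 4 tumours (exact sign-flip permutation p = 0.125, a pair chosen after the values were seen). With the longest transcript of 6520 bases in place of 10920 bases of merged exons, its level was 165 ± 38.7 RPKM, and it kept its place in the order.

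The 3 aquaporins among the members had their highest values in tumour 1, and the call of spread beyond counting noise of Aqp1 and Aqp4 was lost without that tumour. Aqp1, a water channel of capillary endothelium and red cells (ENSMUSG00000004655, chromosome 6 from 55336432 to 55348555 on the plus strand, 4 exons), was at 175, 136, 146 and 134 CPM, a mean of 148 ± 19.1. The ratio of its highest to lowest tumour was 1.31, and 1.096 without tumour 1. It had the smallest SD of log2 CPM among the members, 0.18, with an adjusted p of 1.57e-13 over 4 tumours and 0.0968 without tumour 1. Endothelial markers summed to 291, 287, 360 and 273 CPM, with all 8 at a mean of at least 1, of which 5 were highest in tumour 3 and 2 in tumour 1. Red cell markers summed to 32.3 to 110 CPM, also highest in tumour 3, and the part of these cells in the Aqp1 level was not tested.

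Aqp3, which passes water and glycerol and is best known in basal cells of stratified and airway epithelium (ENSMUSG00000028435, chromosome 4 from 41092722 to 41098183 on the minus strand, 6 exons), was at 9.57, 8.36, 6.79 and 6.54 CPM. The tumours lay 1.46 times apart, or 1.28 times without tumour 1, and this spread did not pass the test (adjusted p = 0.101). Aqp4, a water channel of glia and of the basolateral side of some airway cells (ENSMUSG00000024411, chromosome 18 from 15389496 to 15410982 on the minus strand, 5 exons), was the scarcest member. Its counts were 25, 10, 12 and 10, or 2.75, 1.16, 1.48 and 1.19 CPM, which lay 2.37 times apart and 1.28 times without tumour 1, with an adjusted p of 0.0382 over 4 tumours, 0.843 without tumour 1 and 0.0513 without tumour 2. Of 6 basal cell markers only Krt14 reached a mean CPM of 1, at 21.02 CPM in tumour 1 and at most 0.833 in the others, and tumour 1 was also where Aqp3 and Aqp4 were highest. The other 5 basal markers had at most 9 counts in any tumour, and in tumour 1, 2 of them were highest and 3 had a count of 0. The part of such cells was not tested.

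Across the whole family, Aqp5, an apical water channel of AT1 and secretory cells, was the most abundant aquaporin. It was at 232, 194, 258 and 298 CPM and held 55.2% to 67.7% of the summed aquaporin RPKM, with Aqp1 holding 29.98% to 41.2%. Aqp5 exceeded Aqp1 by 0.74 ± 0.34 on the log2 RPKM scale in 4 of 4 tumours (exact sign-flip permutation p = 0.125, a pair chosen after the values were seen). Aqp3 held 2.78% ± 0.665 and Aqp4 0.169% ± 0.0709. Aqp5 was lowest in tumour 2, where 19.4% of all genes tested were lowest. In that tumour 8 of 10 AT1 markers were also lowest, and the part of those cells in the Aqp5 level was not tested. Of the 8 remaining aquaporins none reached a mean CPM of 1, and Mip, Aqp8 and Aqp12 had no counts.

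Potassium channels, which recycle the potassium that the pump and Slc12a2 bring in, held some of the widest differences between tumours in the pathway. Kcnk1, a background potassium channel, was the most abundant per kilobase at 44.4 ± 10.3 RPKM. Kcnj15, an inward rectifier, was at 26.1, 35.2, 239 and 82.2 CPM, 9.15 times apart and highest in tumour 3. The channel beta subunit Kcne3 reached 30.6 CPM in tumour 1, with 4.52 to 6.91 elsewhere, while Kcne2, of the same family, was lowest in tumour 1 at 6.38 CPM and 20.2 to 29.4 elsewhere. Of 8 tested channels, 7 varied beyond counting noise, beside 76.7% of all genes tested, and Kcne1 and Kcnma1 had no counts.

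**Figure D4:**
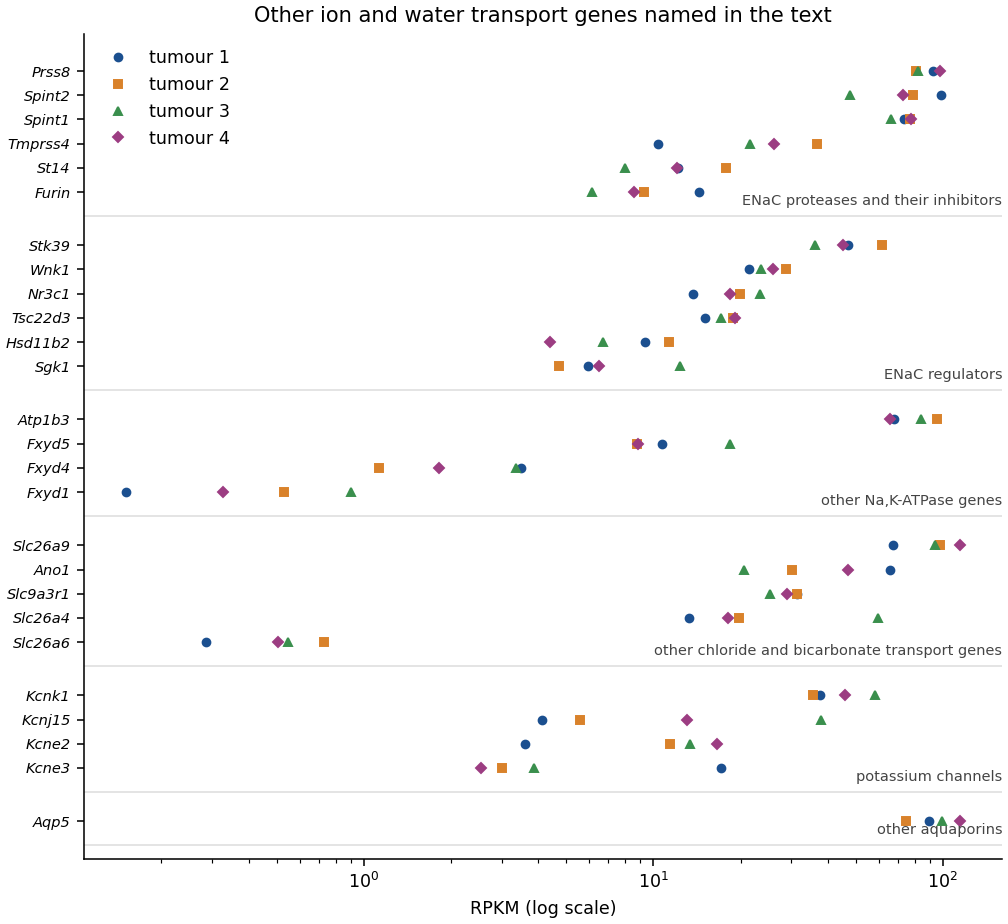
RPKM (log scale) of the 26 pathway genes named in the text that were tested, in each of the 4 tumours, 1 row per gene and 1 marker per tumour, grouped by list and ordered by level within a list. Aqp5 and Slc26a9 have the highest levels drawn, at means of 94.6 and 93.5 RPKM, and the markers of Kcnj15 and Kcne3 are spread widely, with ratios of highest to lowest tumour of 9.15 and 6.77.

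Set against all genes, spread beyond counting noise was common in these tumours. It was found for 8 of the 9 transport genes, all but Aqp3, beside 76.7% of all genes, and for 46 of the 50 tested of 63 further pathway genes. A highest tumour over 2 times the lowest was found for Scnn1a, Cftr and Aqp4, 3 of 9 members, beside 28.5% of all genes and 24 of 50 pathway genes. Without tumour 1 only Cftr of the members was over 2 times, beside 18.02% of all genes. In none of the 9 members did 1 tumour stand apart by Dixon's ratio, which was the case for 5.86% of all genes. The median ratio of highest to lowest tumour was 1.76 for the members, 1.95 for the pathway genes and 1.58 for all genes. The coefficient of variation beyond counting noise was 70.1% for Cftr and 35.3% for Scnn1a, against 43.0% and 23.0% on the trend for genes of their abundance. It was 12.3% for Aqp1 and 13.5% for Aqp3, below the 22.3% and 40.4% of the trend. Nothing particular to these genes is read from these counts.

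**Figure D5:**
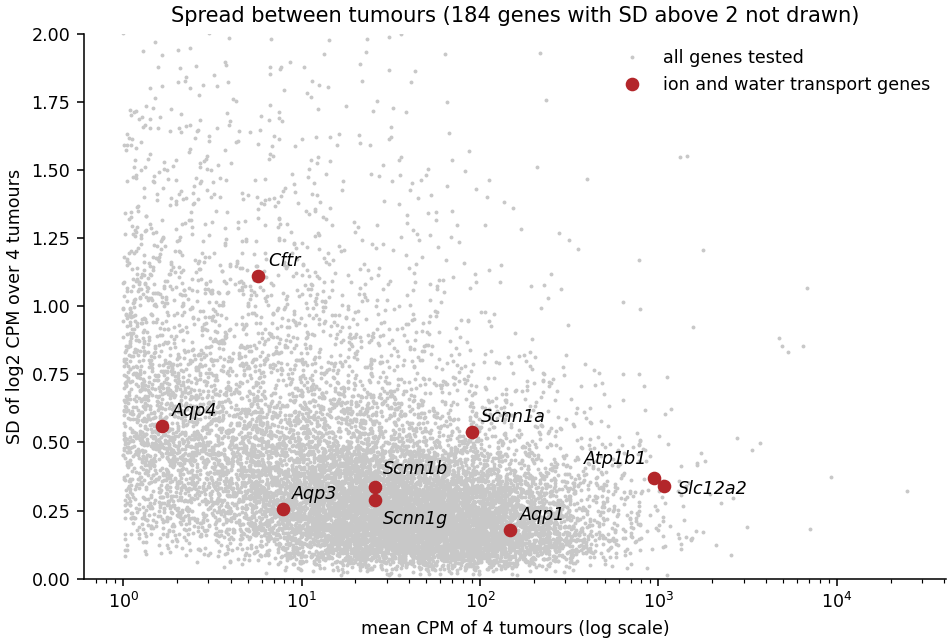
SD of log2 CPM over the 4 tumours against mean CPM (log scale) for all genes tested (grey) with the 9 transport genes marked. Cftr (SD 1.11) lies highest of the members and Aqp1 (0.18) lowest. The 184 genes with an SD above 2 are not drawn.

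The genes whose profile over the tumours was most like that of a member were sought among the 10269 genes that averaged 10 CPM or more, by the root mean square difference of centred log2 CPM over the 4 tumours. For Scnn1a, the only member that met the rule for this search, they were Eif2s3y (0.048), Ddx3y (0.051) and Ttll7 (0.068). Eif2s3y and Ddx3y lie on the Y chromosome and were at 56.9, 94.1, 110 and 141 CPM and 61.5, 109, 133 and 157 CPM, lowest in tumour 1 and highest in tumour 4 like Scnn1a. The likeness rests on 4 tumours and is given as a description.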

How the data were processed

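Raw read counts per gene for 4 tumours were used as deposited by the authors. According to the labels and methods, the authors prepared stranded mRNA libraries, demultiplexed with bcl2fastq 2.17, trimmed with cutadapt (1.4.2 in the submitters' processing notes), aligned to mm10 with HISAT2 and counted with featureCounts 1.4.4. The annotation release and the strand setting of the counting are not given in the sources used here. The deposited log2 normalised values, made by the authors with edgeR sizes and with columns named as wild type, were used only as an alternative for differences between genes, which they give unchanged because they also add 0.5 to each count, and the single-sample and combined count tables held identical values (156068 of 156068).

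CPM used TMM sizes (edgeR 4.0.16, R 4.3.3). Logs were taken after adding 0.5 to each count. RPKM divided CPM by merged exon length from GENCODE M21 on GRCm38, which held 37693 of the 39017 identifiers. Genes averaging 1 CPM or more were tested for spread between tumours with a chi-square test against Poisson noise (3 degrees of freedom), adjusted by Benjamini-Hochberg, and called at an adjusted p of 0.05. Such p-values measure the spread between these libraries, which may be technical. Dispersions came from edgeR. Genes were compared within tumours by exact two-sided sign-flip permutation tests (SciPy 1.17.1). Scripts were tested on simulated counts. Sequences with at least 97% identity over 80 bases to another transcript were sought with BLAST 2.17.0. Among the transport genes named, Furin, St14, Kcnj15, Atp1b3, Slc26a9 and Slc9a3r1 hold such stretches. So do Atp1b1, Cftr, Prss8, Tmprss4, Kcnk1, Mip and Kcnma1 where exons overlap a gene on the opposite strand. The counts of all these genes, including the counts of 0 for Mip and Kcnma1, carry some uncertainty.

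The members and the gene lists were chosen with earlier results of these data known. The text names all members, the 4 most abundant genes per kilobase and the 3 with the widest ratio in each pathway list, plus Aqp5, marker genes that show whether a cell type was detected, and the 3 genes most alike to any member that averaged 10 CPM or more and lay at least 2 times apart. Genes without counts were named after their values were seen. Some genes that this rule picks, and 1 of the 4 subunit pairs tested, are not reported here. Alternatives were DESeq2 1.42.0 size factors and other scalings, other filters and thresholds, other gene lengths and leaving out each tumour. Marker lists covered 12 cell types, and 153 of 155 list genes matched a row. Sequences came from RefSeq (GRCm38.p6).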

Additional observations from a re-analysis of the deposited data

Results flagged for a closer look

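Among 34 values checked for a tumour lying far from the other 3, 3 stood apart, where chance gives about 1 in 20, and all 3 were marker lists rather than transport genes. The mean log2 CPM of the AT2 markers reached 10.32 in tumour 1 against 11.23 to 11.33 elsewhere. For the general epithelial markers it was 9.66 in tumour 1 against 8.78 to 8.93 elsewhere, and for the endothelial markers 5.17 in tumour 3 against 4.71 to 4.78 elsewhere.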

How the results depend on the processing

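No analysis paired between groups was possible because all samples belong to 1 group, and pairing was only of genes within a tumour. With the other scalings 8 of 9 members varied beyond counting noise (76.6% of all genes with DESeq2 size factors and 77.3% with library size only). It was 7 with no filter (53.5% of all genes) or a threshold of 0.01 (68.6%), and 6 of the 6 left with a mean CPM of at least 10 (85.3%). Leaving out each tumour gave 6 to 8 members and 39 to 45 pathway genes, beside 62.3% of all genes without tumour 1, 71.2% without tumour 2, 62.4% without tumour 3 and 71.9% without tumour 4. Aqp4 lost its call without tumour 1 (adjusted p = 0.843, chi-square test), without tumour 2 (0.0513) and with no filter (0.0534), and Aqp1 lost it without tumour 1 (0.0968). Members over 2 times between tumours fell from 3 to 1 with a mean CPM of at least 10 (17.2% of all genes), where Cftr and Aqp4 are not tested, and ranged from 1 to 3 when each tumour was left out. The 3 ENaC subunit differences kept their direction under every alternative run, but that of Scnn1b and Scnn1g ranged from 0.04 without tumour 1 to 0.32 without tumour 4. Scnn1a exceeded Scnn1b and Scnn1g in 4 of 4 tumours, so leaving out a tumour could not change the direction of those differences. Nor could the deposited log2 values, which give the same differences. The SD of log2 CPM without tumour 1 was 0.27 for Scnn1a, 0.07 for Aqp1, 0.19 for Aqp4 and 0.17 for Atp1b1, and for Scnn1g it was 0.18 without tumour 2. Counts of 10 to 25 for Aqp4 and 19 to 77 for Cftr limit the precision of their levels.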
